A study of Mus musculus with 8 samples.

Results

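The BMP-SMAD direct target genes examined here were 10 genes, Id1, Id2, Id3, Id4, Smad6, Smad7, Smad9, Bambi, Msx1 and Msx2, of 37620 genes in the gene count files. They were chosen by name, as genes known to respond directly to BMP signalling, but with earlier results of these data known. Each was found by its symbol in the mouse annotation. RNA-seq counts were available for 8 libraries made from mouse pluripotent cultures, of which 7 came from R1, a mouse embryonic stem cell (mESC) line. The R1 mESCs were grown without feeders in medium with serum. The library called 2i (day 5) came from cells with 3 µM CHIR99021, a GSK3 inhibitor, and 1 µM PD0325901, a MEK inhibitor. The library called 2iJ (day 5) came from cells given 2i and 2.0 µM of a JAK inhibitor. The 3 libraries called 2iJ+B-A (days 2, 5 and 11) came from cells given 2iJ with 10 ng/ml BMP4 and 10 µM ALK5 inhibitor II, which blocks the type I receptor used by TGF-beta and its close relatives. BMP4 and the ALK5 inhibitor were never given apart in these libraries, so their effects cannot be told apart.

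The 3 other libraries differed in more than medium. The library called sorted (day 2) came from another line, CDX2-GFP, in which GFP reports Cdx2, and held the GFP-positive cells of a 2iJ+B-A culture. The mesoderm progenitors (days 3 and 4) were R1 cells grown as embryoid bodies in a different medium. Their medium, as the study's methods describe it, held BMP4 at a lower concentration together with Activin A and Wnt3a. An inhibitor of Wnt secretion, IWP-2, was then added on day 3, so that only the day 4 library had been exposed to it. Age in culture and IWP-2 therefore cannot be told apart between the mesoderm libraries.

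Total gene counts were between 24532587 and 31453888 in the R1 libraries and 19810855 in the sorted library. The sorted library stood apart, with 29.7% of read pairs unmapped against 2.17% to 3.85% elsewhere, and with 27.8% of uniquely aligned pairs outside annotated genes against 7.83% to 13.2%. Its 4 fibroblast markers summed to 88.9 CPM (counts-per-million, the share of a library's gene counts) against 7.03 to 15.9 in the other libraries. The labels of the cultures were set against marker genes. The 6 pluripotent stem cell markers, Pou5f1 and Nanog among them, summed to between 2010 and 4070 CPM in the mESC libraries and to 900.2 and 83.9 CPM in the mesoderm progenitors on days 3 and 4. The 6 nascent mesoderm markers, such as T and Mesp1, summed to 1215 and 339 CPM in the mesoderm progenitors and to between 4.16 and 11 CPM in the mESC libraries.

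BMP ligands bind a pair of type I and type II receptor kinases, which phosphorylate SMAD1, SMAD5 and SMAD9. These join SMAD4, enter the nucleus and switch on a small set of genes within hours. The 4 Id genes encode proteins that bind basic helix-loop-helix factors, above all the E proteins, and keep them from DNA. Smad6 and Smad7 encode inhibitory SMADs and Bambi a receptor without a kinase, and all 3 feed back on the pathway, whereas Msx1 and Msx2 encode homeobox transcription factors. Smad7 also responds to the TGF-beta and Activin branch of the family. In mouse embryonic stem cells, BMP4 in serum-free medium is known for holding back neural differentiation through Id genes, and without the support of LIF it favours mesoderm and trophoblast fates.

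SMAD proteins of the BMP branch are known to bind GC-rich letters such as GGCGCC, often near a GTCT that SMAD4 binds. To show what lies upstream of the target genes, the 1500 bases before each annotated gene start were searched for GGCGCC, which reads the same on both strands. It was present for 7 of the 10 genes, and in 19.1% of the windows of the same length of 22337 protein-coding genes. These windows of the 10 genes had a median GC content of 52%, against 46.8% over all protein-coding genes. The match began 1099 bases before the start of Id1, 231 before Id2, 459 before Id4, 1002 before Smad6 and 51 before Smad9, at 957 and 44 bases before Bambi, and at 103 and 37 bases before Smad7. No window of Id3, Msx1 or Msx2 held it. The longer arrangement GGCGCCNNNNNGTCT, searched on both strands, was in none of the 10 windows and in 0.157% of all of them. GTCT on either strand was present in 22330 of the 22337 windows, and in 54.1% of the 120-base stretches next to a gene start, so its presence separates few genes.

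Shown here are the stretches around GGCGCC of 3 genes that passed the test in 2iJ+B-A, Id1 (chr2:152560858-152560977, plus strand), Id2 (chr12:25781099-25781218, minus strand) and Smad9 (chr3:54559423-54559503, plus strand), on the NCBIM37 build. Each is written 5′ to 3′ on the strand of its gene, with GGCGCC and any GTCT or its reverse complement AGAC in capitals. They begin 30 bases before the match.
Id1: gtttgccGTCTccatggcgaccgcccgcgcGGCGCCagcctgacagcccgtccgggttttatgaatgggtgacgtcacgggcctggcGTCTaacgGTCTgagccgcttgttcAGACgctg
Id2: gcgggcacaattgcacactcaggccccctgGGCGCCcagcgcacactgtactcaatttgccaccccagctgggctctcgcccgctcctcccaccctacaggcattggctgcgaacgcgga
Smad9: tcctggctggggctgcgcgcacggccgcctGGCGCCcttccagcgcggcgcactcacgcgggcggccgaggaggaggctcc
The Id1 stretch held 4 matches to GTCT or AGAC beside its GGCGCC, and the Id2 and Smad9 stretches held none. The Smad9 stretch ends at the annotated gene start. A match describes letters only and says nothing on whether a SMAD was bound in these cells.

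The comparison of 2iJ+B-A (n = 3) with the 2i and 2iJ libraries as 1 group (n = 2) asked how the target genes differ in cells given BMP4 and the ALK5 inhibitor. The 2i library had no JAK inhibitor, unlike the others, so the pooled contrast also carries that difference. With 2iJ alone as the reference, the log2 fold change of Id1 went from 3.70 to 3.22, of Id2 from 3.57 to 3.15 and of Msx1 from 2.61 to 2.01. The response was uneven. Of the genes that passed the test, Id1, Id2, Id3 and Msx2 were between 5.90 and 13.6 times the level of the reference and Smad9 and Bambi between 2.65 and 5.01 times, whereas Smad7 was on the other side of the reference and did not pass. By edgeR's quasi-likelihood test with Benjamini-Hochberg adjustment, 6 of the 10 genes passed an adjusted p of 0.05, all higher in 2iJ+B-A, against 2.48% of the 16235 genes tested. None passed in the lower direction, against 2.64% of all genes. The target genes were chosen with earlier results of these data known, so these counts are not independent of that choice. The median log2 fold change was 2.36 over the 10 genes and 0.01 over all genes tested. In 9 genes every 2iJ+B-A library was above both reference libraries, which held for 26.8% of all genes, and in Smad7 every one was below, which held for 17.3%. The days of a group served as its samples and nothing in the labels says that they came from separate cultures, so these p-values measure the spread between libraries, days included.

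**Figure D1:**
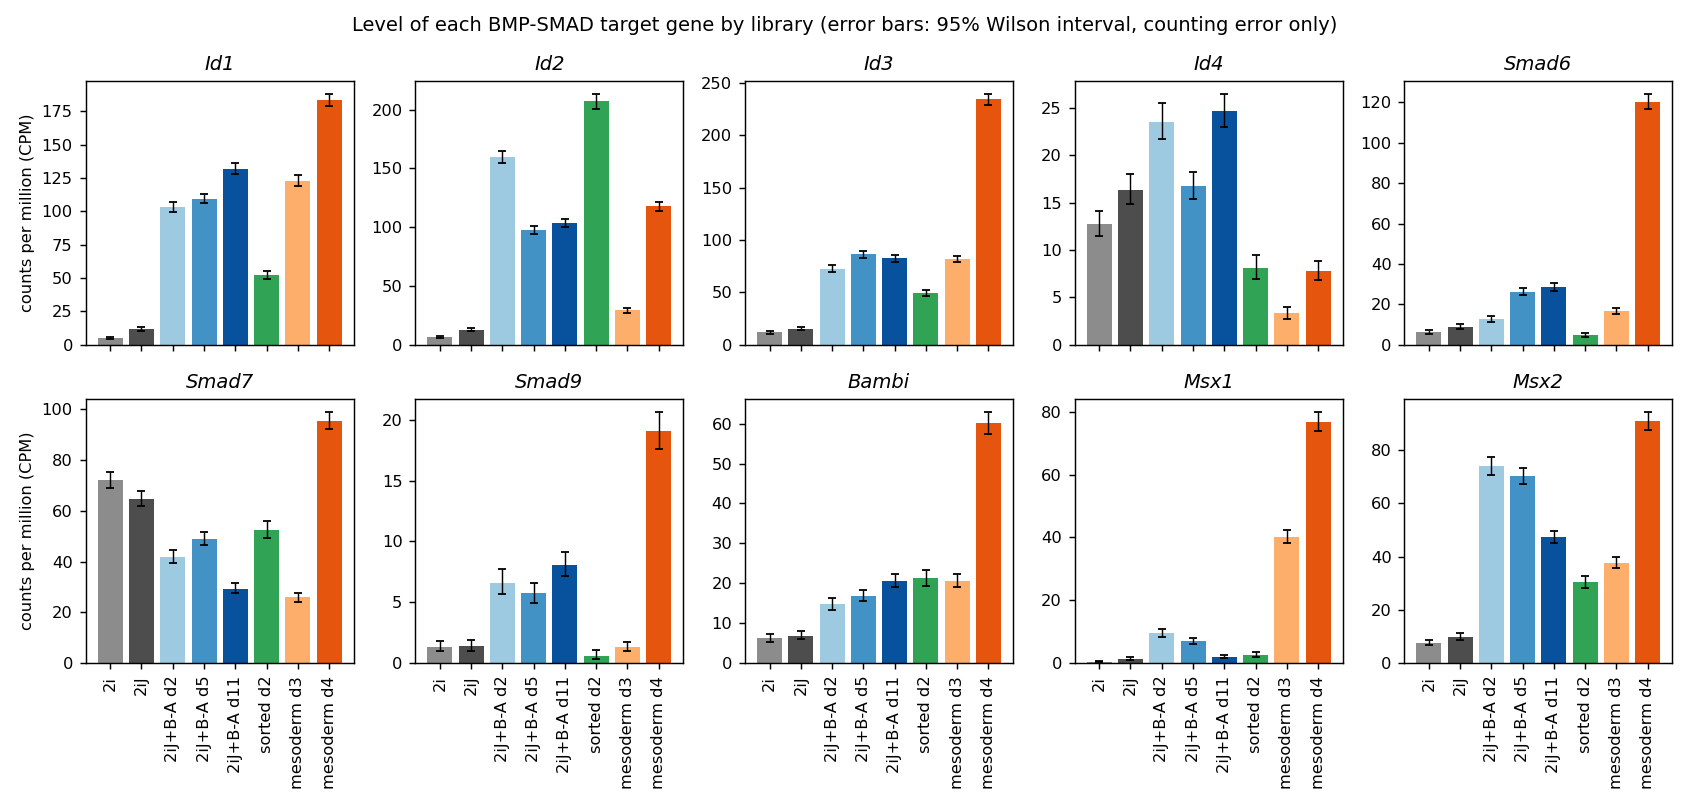
Level of each of the 10 target genes in the 8 libraries, in CPM, 1 panel a gene and 1 bar a library, with 95% Wilson intervals for counting error only. Id1, Id2, Id3 and Msx2 stand between 47.3 and 159.9 CPM in the 3 libraries of 2iJ+B-A and at most 15.3 CPM in 2i and 2iJ, whereas Smad7 is lower in 2iJ+B-A.

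Id1 had the largest ratio. It was at 5.12 CPM in 2i, 11.8 CPM in 2iJ, and 103, 109.6 and 132 CPM in 2iJ+B-A on days 2, 5 and 11. The groups did not overlap, and the lowest 2iJ+B-A library was far above 2iJ. The means were 8.43 ± 4.69 CPM (SD, n = 2) and 115 ± 15.0 CPM (SD, n = 3), a ratio of 13.6. On the log2 scale the difference was 3.70 ± 0.36 (SE), with an edgeR adjusted p of 0.00928. Id1 (ENSMUSG00000042745) lies on chromosome 2 at 152561987 to 152563146 of NCBIM37, plus strand.

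Id2 was almost as strongly different but was less even over the days. It was at 6.39 CPM in 2i, 13.0 CPM in 2iJ, and 159.9, 97.5 and 104 CPM in 2iJ+B-A on days 2, 5 and 11. Day 2 was the highest of the 3 libraries, and all were above both references. The difference was 3.57 ± 0.39 (SE) on the log2 scale (edgeR adjusted p = 0.00928), and the ratio of the means was 12.4. Id2 (ENSMUSG00000020644) lies on chromosome 12 at 25778666 to 25780957, minus strand.

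Id3 was the steadiest of the strongly different members. It was at 12.0 and 15.3 CPM in 2i and 2iJ and at 72.4, 86.5 and 82.5 CPM in 2iJ+B-A on days 2, 5 and 11. The groups were well apart and the 3 days were close together, with a mean of 80.5 ± 7.26 CPM (SD, n = 3). It differed by 2.48 ± 0.17 (SE) on the log2 scale (edgeR adjusted p = 0.00928), for a ratio of 5.90. Id3 (ENSMUSG00000007872; chromosome 4, 135699412 to 135701670, plus strand) had no GGCGCC in its window, as stated above.

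Id4 differed from the other 3 Id genes. It was at 12.8 and 16.4 CPM in 2i and 2iJ and at 23.5, 16.7 and 24.7 CPM in 2iJ+B-A on days 2, 5 and 11. The day 5 library was only just above 2iJ, and with CPM rescaled by edgeR's trimmed mean (TMM) or with unstranded counts Id4 overlapped between the groups, leaving 8 genes that did not. The log2 difference of 0.50 ± 0.25 (SE) did not pass the test (edgeR adjusted p = 0.27). A lincRNA on the opposite strand, A330033J07Rik, overlaps Id4 (ENSMUSG00000021379; chromosome 13, 48356796 to 48359405, plus strand), and the unstranded count of Id4 was 0.816 to 0.95 times the reverse-strand count used here.

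To compare the 4 Id genes with each other, CPM was divided by the exon length of each gene in kb. Their summed level was 23.8 CPM per kb in 2i and 38.8 CPM per kb in 2iJ, with the 4 genes in similar proportions, and Id4 took 32.3% and 25.4% of the sums. In 2iJ+B-A the sum was 269, 229.6 and 256 CPM per kb on days 2, 5 and 11. There Id4 took between 4.39% and 5.80%, and Id1 and Id2 together made up most of it. Id2 was first on day 2, with 46.7% against 33.0% for Id1, and Id1 was first on days 5 and 11, with 41.1% and 44.4% against 33.4% and 31.9% for Id2. The share of 1 gene depends on the levels of the others, and these shares carry no test.

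**Figure D2:**
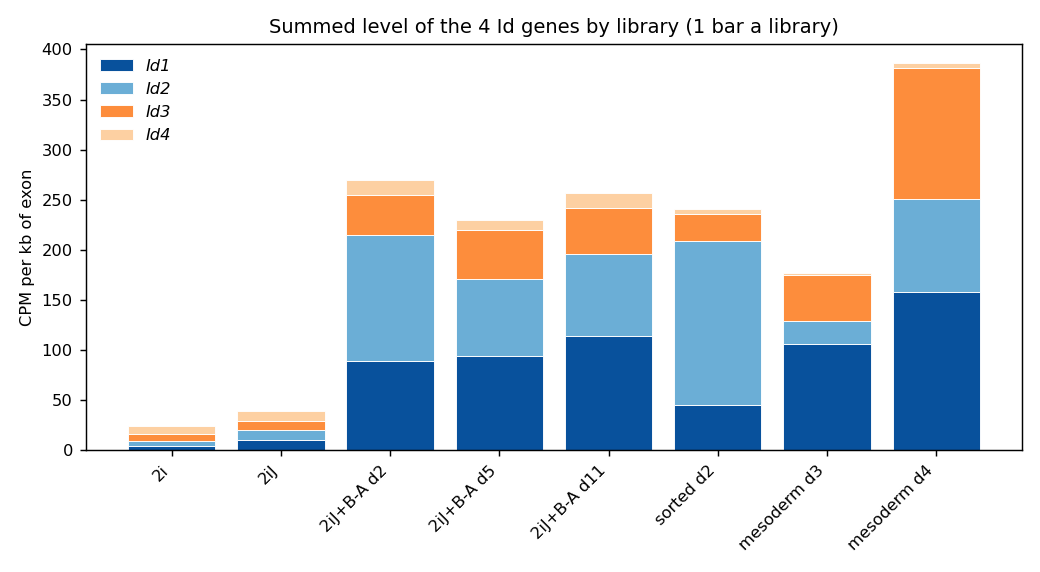
Summed level of Id1, Id2, Id3 and Id4 in each of the 8 libraries, in CPM per kb of exon, 1 stacked bar a library. The stack is 23.8 and 38.8 in 2i and 2iJ and between 177 and 387 in the other 6 libraries, where Id4 takes at most 5.80% of it.

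Of the homeobox genes, Msx2 passed the test and Msx1 did not. Msx2 was at 7.60 and 9.96 CPM in 2i and 2iJ and at 73.9, 70.2 and 47.3 CPM in 2iJ+B-A on days 2, 5 and 11. The lowest of these, day 11, was still well above both references. Msx2 differed by 2.78 ± 0.26 (SE) on the log2 scale (edgeR adjusted p = 0.00928), and the ratio of the means was 7.27. Msx2 (ENSMUSG00000021469) lies on chromosome 13 at 53562250 to 53568443, minus strand.

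Msx1 was low in all the R1 mESC libraries. It was at 0.46 CPM in 2i and 1.44 CPM in 2iJ, from 13 and 37 counts, and at 9.42, 6.96 and 1.89 CPM in 2iJ+B-A on days 2, 5 and 11. Day 11 was near 2iJ and far below day 2. The difference of 2.61 ± 0.80 (SE) on the log2 scale did not pass (edgeR adjusted p = 0.105). Without the day 11 library it was 3.04, with an adjusted p of 0.0296. With all 8 libraries in the fit it was 2.61 (edgeR adjusted p = 0.155), and with 2iJ alone as the reference 2.01. Msx1 (ENSMUSG00000048450) lies on chromosome 5 at 38211724 to 38215822, minus strand.

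The pathway's own feedback genes did not move as one. Bambi passed the test in the higher direction, whereas Smad6 and Smad7 had fold changes of opposite sign and neither passed. Bambi was at 6.22 and 6.89 CPM in 2i and 2iJ and at 14.8, 16.8 and 20.5 CPM in 2iJ+B-A on days 2, 5 and 11. The groups did not overlap, and the reference libraries were close together. On the log2 scale Bambi differed by 1.33 ± 0.23 (SE, edgeR adjusted p = 0.03), a ratio of 2.65. Bambi (ENSMUSG00000024232) lies on chromosome 18 at 3507955 to 3516402, plus strand.

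Smad6 was at 6.39 and 8.87 CPM in 2i and 2iJ and at 12.8, 26.2 and 28.5 CPM in 2iJ+B-A on days 2, 5 and 11. Day 2 was only a little above 2iJ, and the later days were further away. Smad6 differed by 1.48 ± 0.37 (SE) on the log2 scale (edgeR adjusted p = 0.066). Without the day 2 library it was 1.76, with an adjusted p of 0.00599. With all 8 libraries in the fit it was 1.49 (edgeR adjusted p = 0.357), and with 2iJ alone as the reference 1.27. Smad6 (ENSMUSG00000036867) lies on chromosome 9 at 63800953 to 63869866, minus strand.

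Smad7 was at 72.2 and 64.8 CPM in 2i and 2iJ and at 41.8, 49.1 and 29.4 CPM in 2iJ+B-A on days 2, 5 and 11. Every 2iJ+B-A library was lower than both references. The difference was -0.86 ± 0.21 (SE) on the log2 scale (edgeR adjusted p = 0.0645), and without the day 2 library it was -0.89 with an adjusted p of 0.0455. With all 8 libraries in the fit it was -0.846 (edgeR adjusted p = 0.406), and with 2iJ alone as the reference -0.764. The ratio of the means was 0.585. Per kb of exon, Smad7 (ENSMUSG00000025880; chromosome 18, 75527183 to 75555589, plus strand) had the highest level of the 10 genes in 2i and in 2iJ, at 16 and 14.3 CPM per kb, and stood below Id1, Id2, Id3 and Msx2 in every 2iJ+B-A library.

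Smad9 encodes the BMP-regulated SMAD also known as SMAD8, and so is both a carrier and a target of the signal. It was at 1.35 and 1.36 CPM in 2i and 2iJ, from 38 and 35 counts, and at 6.60, 5.72 and 8.07 CPM in 2iJ+B-A on days 2, 5 and 11. The groups were separate although the level was low throughout. Smad9 differed by 2.25 ± 0.33 (SE) on the log2 scale (edgeR adjusted p = 0.0199), a ratio of 5.01. Smad9 (ENSMUSG00000027796) lies on chromosome 3 at 54559504 to 54605179, plus strand.

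How many target genes passed varied with the libraries in the fit, as did the number of all genes called. Without 2i, 0 of the 10 passed, and 0% of all genes, and without 2iJ only Id1 and Id3 did, with 0.0564% of all genes. These fits have a reference of 1 library. Without day 2, day 5 or day 11 of 2iJ+B-A, 8, 4 and 7 target genes passed, with 16.4%, 0.545% and 5.94% of all genes. With all 8 libraries in the fit only Id1 and Msx2 passed, with 0.884% of all genes. Bambi and Smad9 then had edgeR adjusted p-values of 0.181 and 0.275. The direction of all 10 fold changes held in each of these fits. The 7 trophectoderm markers, which include Cdx2, Krt8 and Eomes, summed to 44.3 and 62.8 CPM in 2i and 2iJ. The sum was 432, 1218 and 585.5 CPM in 2iJ+B-A on days 2, 5 and 11, and 1007 and 876 CPM in the mesoderm progenitors. Krt8 and Krt18 made up most of it in 2iJ+B-A, at 198 and 160.5 CPM on day 2. None of the 7 was at 0 in 2i, 2iJ and 2iJ+B-A, and in 2iJ+B-A 4 were called higher and 1 lower. Eomes went the other way, from 19.0 and 13.2 CPM in 2i and 2iJ to 4.16, 4.04 and 2.57 CPM in 2iJ+B-A. The 5 primitive endoderm markers summed to 10.7 and 18.5 CPM against 34.4, 66.9 and 231 CPM. The part of these cells in the levels of the target genes was not tested, and in bulk samples fewer cells of a type and less RNA per cell cannot be told apart.

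The other genes of the pathway were taken from whole lists, drawn up, like the target genes, with earlier results of these data known. Among 10 other tested genes that are known to respond to BMP, 5 rose and 1 fell. Those that rose were Gata2, Dlx3, Dlx5, Dusp9 and Gata3, with log2 fold changes of 4.38, 3.91, 3.77, 2.36 and 1.93 and edgeR adjusted p-values from 0.0133 to 0.0443. Gata2 and Gata3 encode zinc-finger factors of trophoblast and blood, Dlx3 and Dlx5 homeobox factors, and Dusp9 a phosphatase of ERK that is known as a BMP target in mESCs. Dusp9 was at 70.7 and 106 CPM in 2i and 2iJ and at 403, 664 and 373 CPM in 2iJ+B-A on days 2, 5 and 11, with no overlap. Prdm1, a transcriptional repressor that BMP induces in the germ line, fell by 2.64 on the log2 scale (edgeR adjusted p = 0.0391), from 28.7 and 32 CPM in 2i and 2iJ to 9.46, 3.47 and 2.54 CPM. The call of Prdm1 was lost without day 5 of 2iJ+B-A and with all 8 libraries in the fit. Nor did it hold without 2i or without 2iJ. Gata3 is also one of the trophectoderm markers. With all 8 libraries in the fit, 3 of 11 tested other BMP-responsive genes were called higher, and 0.884% of all genes were called. The 5 that rose became 0 without 2i and 1 without 2iJ or without day 5, in fits that called 0%, 0.0564% and 0.545% of all genes.

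Of 5 listed genes of the Nodal and Activin branch, whose type I receptors the ALK5 inhibitor blocks, 3 fell and none rose. Lefty2 and Lefty1, which encode secreted inhibitors of Nodal, had log2 fold changes of -6.05 and -5.48 (edgeR adjusted p = 0.0339 and 0.0278), and Tdgf1, the coreceptor Cripto, one of -1.70 (edgeR adjusted p = 0.0172). Lefty1 was at 141 and 189 CPM in 2i and 2iJ and at 8.36, 3.31 and 0.20 CPM in 2iJ+B-A on days 2, 5 and 11. Nodal itself, at 77.7 and 105 CPM in 2i and 2iJ and at 45.4, 75.6 and 123 CPM in 2iJ+B-A on days 2, 5 and 11, overlapped between the groups and did not pass (edgeR adjusted p = 0.724). With all 8 libraries in the fit, which called 0.884% of all genes, none of Lefty1, Lefty2 and Tdgf1 passed. Without 2i or without 2iJ none of the 3 passed, and without day 5 only Tdgf1 did.

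For the rest of the pathway the calls varied with the fit. None of the 8 tested ligands, 10 receptors and coreceptors and 3 SMADs (Smad1, Smad5 and Smad4) passed the edgeR test, with 5, 2 and 0 of them at an unadjusted p under 0.05, and with DESeq2 3 ligands and 2 receptors were higher. Without day 2 of 2iJ+B-A 5 ligands and 1 receptor were called higher, and without the filter on low counts 3 ligands, and the median log2 fold change of the ligands was 1.65. Bmp4 itself was at 8.14 and 6.11 CPM in 2i and 2iJ and at 9.82, 20.9 and 24.7 CPM in 2iJ+B-A. Of 9 extracellular antagonists, Nbl1 rose (log2 fold change 4.65, edgeR adjusted p = 0.0335), a call lost without 2i, without 2iJ or with all 8 libraries in the fit, while 3 antagonists were called higher without day 2. Of 5 intracellular negative regulators, Skil, a repressor of SMAD activity that Activin is known to induce, fell by 1.94 on the log2 scale (edgeR adjusted p = 0.00928), from 195 and 223 CPM to 71.5, 45.5 and 54.6 CPM, and this call too was lost without 2i or without 2iJ. Of the 3 E proteins, the partners that Id proteins hold back, Tcf4 fell by 1.18 on the log2 scale with an edgeR adjusted p of 0.0496. This call was lost with another scaling of the libraries, with unstranded counts or with all 8 libraries in the fit. It was also lost without 2i, without 2iJ or without day 5 of 2iJ+B-A.

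**Figure D3:**
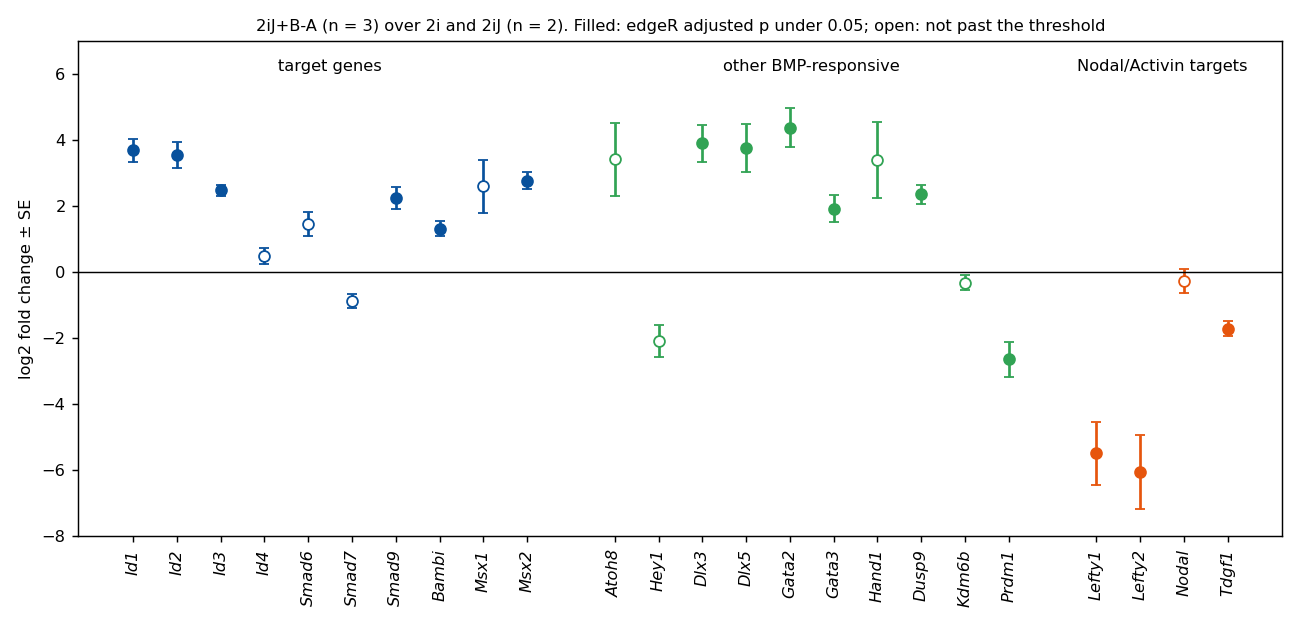
Log2 fold change of 2iJ+B-A (n = 3) over 2i and 2iJ (n = 2), with its standard error, for the 10 target genes, 10 other BMP-responsive genes and 4 of the 5 genes of the Nodal and Activin branch. Filled points passed an edgeR adjusted p of 0.05, which held for 6 target genes, all above 0, for 5 other BMP-responsive genes above 0 and Prdm1 below it, and for Lefty1, Lefty2 and Tdgf1, all below 0.

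The 2iJ and 2i libraries, both from day 5, differ by the JAK inhibitor and were compared without a test, since there was 1 library of each. Id1, Id2 and Msx1 were at least 2-fold higher in 2iJ, which held for 5.78% of 16961 genes, and none of the 10 was at least 2-fold lower, which held for 4.09%. The Id1 level of 11.8 CPM in 2iJ was 2.30 times that in 2i, with an exact 95% interval from counting error of 1.88 to 2.82. For Id2 the ratio was 2.03 (1.69 to 2.45) and for Msx1 3.12 (1.62 to 6.39). Smad9, with a ratio of 1.01 (0.619 to 1.64), and Bambi, with 1.11 (0.894 to 1.37), showed no difference that could be detected at this depth. These ratios compare a library with a library and not the conditions.

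The step from 2iJ to 2iJ+B-A was also compared within day 5, where both have a library. Of the 10 genes, 8 were at least 2-fold higher in 2iJ+B-A, against 14% of all genes, and none was at least 2-fold lower, against 7.67%. The ratios ran from 9.32 for Id1 (8.29 to 10.5) down to 1.02 for Id4 (0.898 to 1.17) and 0.757 for Smad7 (0.706 to 0.811). Between day 2 of 2iJ+B-A and 2iJ, 7 of the 10 were at least 2-fold higher, against 9.9%, and none was at least 2-fold lower, against 8.74%. Smad6 separates these 2 counts, with a ratio of 1.45 (1.22 to 1.72) on day 2 and 2.96 (2.55 to 3.44) on day 5.

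The days of 2iJ+B-A were compared as single libraries, and the shares of target genes past 2-fold were close to those of all genes. From day 2 to day 11 only Smad6 was at least 2-fold higher, at 2.22 times (1.95 to 2.53), against 10.8% of all genes. Only Msx1 was at least 2-fold lower, at 0.20 times (0.148 to 0.268), against 9.22%. Id1 stood at 1.28 times (1.22 to 1.34) its day 2 level, whereas Id2 and Msx2 stood at 0.648 (0.619 to 0.68) and 0.639 (0.596 to 0.685). Id3, Id4 and Smad9 stood at 1.14, 1.05 and 1.22 times their day 2 level. Each day is a single library, so no test was run.

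The sorted cells, which are the GFP-positive part of a day 2 culture of another line, were compared first with the unsorted day 2 library. Most target genes were lower in the sorted library, and Id2 was not. Id4, Smad6, Smad9, Msx1 and Msx2, 5 of the 10, were at least 2-fold lower, against 19.4% of all genes, and none was at least 2-fold higher, against 17.6%. Smad9 was at 0.61 CPM in the sorted library, from 12 counts, and at 6.60 CPM in the unsorted one, a ratio of 0.0917 (0.0464 to 0.165). Id1 was at 52.4 against 103 CPM, and Id3 at 49.5 against 72.4 CPM. Id2 was at 207 against 159.9 CPM, a ratio of 1.30 (1.24 to 1.36), and took 67.8% of the summed Id level per kb, against 46.7% in the unsorted library. Smad7 and Bambi were the other 2 genes with a ratio over 1, at 1.26 (1.15 to 1.37) and 1.44 (1.25 to 1.67).

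Against the 3 unsorted libraries together, none of the 10 genes passed the edgeR test, while 3.34% of the 16961 genes tested were called higher and 2.08% lower. Only Id1 had an unadjusted p under 0.05 (-1.08 ± 0.30 (SE) on the log2 scale, edgeR adjusted p = 0.0862), as 27% of all genes had. With DESeq2, or with only the 4 libraries compared in the edgeR fit, Id1 and Smad9 passed, both lower. In 6 genes the sorted library was below, and in Id2, Smad7 and Bambi above, all 3 unsorted libraries, as 41.7% and 33.5% of all genes were. The sorted group is 1 library, so these tests take its spread from the other groups. Among the pathway genes, Smad5 was at 19.6 CPM in the sorted library and at 46.3, 41.0 and 41.6 CPM in the unsorted ones on days 2, 5 and 11. It was called lower (log2 fold change -1.09, edgeR adjusted p = 0.0473), and this call was lost without any 1 of the 3 unsorted libraries (adjusted p from 0.088 to 0.15). Of 10 antagonists Grem1 was called higher, with 64 counts (3.23 CPM) in the sorted library and 0, 1 and 0 counts in the unsorted ones, a call that was likewise lost without any of them. Grem1 reached the count filter only through the sorted library and the mesoderm progenitors, which had 49 and 22 counts on days 3 and 4. It thus entered the test through the libraries where it was high. The 7 trophectoderm markers summed to 3705 CPM in the sorted library, against 432 CPM in the unsorted day 2 library. Most of this was Krt8 and Krt18, at 1731 and 1595 CPM in the sorted library. Cdx2, whose GFP reporter was used for the sort, was at 235 against 15.0 CPM. Gata3 was at 104.5 against 15.65 CPM, Elf5 at 0.91 against 0.53, Hand1 at 36.65 against 37.54 and Eomes at 2.675 against 4.158. Against the 3 unsorted libraries together, 2 of the 7 were called higher. Line, sort and library quality all differ between the libraries and cannot be told apart.

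The mesoderm progenitors and 2iJ+B-A had both received BMP4, in different media. In this comparison Msx1 rose and Id4 fell, and the other 8 genes did not pass. Msx1 was at 40.2 and 76.9 CPM in the mesoderm progenitors on days 3 and 4, against 9.42, 6.96 and 1.89 CPM in 2iJ+B-A, with no overlap. The difference was 3.28 ± 0.66 (SE) on the log2 scale (edgeR adjusted p = 0.0164). Id4 was at 3.34 and 7.78 CPM against 23.5, 16.7 and 24.7 CPM, again with no overlap, and differed by -1.95 ± 0.45 (SE) on the log2 scale (edgeR adjusted p = 0.0248). For comparison, 11.5% of the 16961 genes tested were called higher in the mesoderm progenitors and 15.5% lower. The median log2 fold change was 0.61 over the 10 genes and -0.03 over all genes. Bambi, at 20.6 and 60.2 CPM, was above all 3 libraries of 2iJ+B-A, on day 3 by a narrow margin, and did not pass (1.24 ± 0.45 (SE) on the log2 scale, edgeR adjusted p = 0.0895). Msx1 and Bambi thus lay wholly above 2iJ+B-A, as 26.2% of all genes did, and Id4 wholly below, as 31% did.

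The count of target genes depended on which mesoderm library was in the group. Without the day 3 library 8 of the 10 genes passed, with 27.2% of all genes, and without day 4 there were 4, with 19.5%. Without day 2, 5 or 11 of 2iJ+B-A 1, 0 and 1 passed, with 19.7%, 12.1% and 15.9% of all genes. Several fold changes turned sign with the day. Smad9 had a log2 fold change of 0.60 with both days, 1.56 (edgeR adjusted p = 0.033) with day 4 alone and -2.34 (edgeR adjusted p = 0.0359) with day 3 alone. Smad6, Smad7 and Msx2 had log2 fold changes of 1.63, 0.62 and 0.03 with both days and of -0.39, -0.583 and -0.719 with day 3 alone, none of which passed. Id2 was at -0.69 with both days, 0.04 with day 4 alone and -2 (edgeR adjusted p = 0.0196) with day 3 alone.

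Between day 3 and day 4 of the mesoderm progenitors all 10 genes were higher on day 4. The ratio was at least 2 for 8 of them, against 9.97% of all genes, and none was at least 2-fold lower, against 17.1%. The median ratio was 2.90 over the 10 genes and 0.975 over all genes. Smad9 went from 1.30 to 19.1 CPM, a ratio of 14.6 (10.6 to 20.6), and Smad6 from 16.6 to 120.3 CPM, a ratio of 7.25 (6.61 to 7.96). Id2 had a ratio of 4.04 (3.76 to 4.35), Smad7 of 3.69 (3.41 to 3.99) and Id3, from 81.7 to 234 CPM, of 2.87 (2.74 to 3.00). Id1 and Msx1, already high on day 3 at 123 and 40.2 CPM, had the smallest ratios, 1.49 (1.43 to 1.55) and 1.91 (1.78 to 2.05). In Id1, Id3, Smad6, Smad7, Smad9, Bambi, Msx1 and Msx2 the day 4 library was the highest of all 8. With 1 library a day there was no test.

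Smad7 and Smad6, both inhibitory SMADs, were both higher on day 4, whereas against 2i and 2iJ their fold changes in 2iJ+B-A had opposite signs. Smad7 was at 25.9 CPM on day 3, the lowest of the 8 libraries, and at 95.6 CPM on day 4, the highest. The Id genes per kb summed to 177 CPM per kb on day 3, where Id1 took 60.0%, and to 387 CPM per kb on day 4, where Id1 took 40.9%, Id3 33.8% and Id2 24.0%. Id4 took 1.14% and 1.21%. The summed nascent mesoderm markers went from 1215 to 339 CPM between these libraries and the 4 smooth or cardiac mesoderm markers from 16.1 to 602 CPM. The part of these changes of cell state in the levels of the target genes was not tested.

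**Figure D4:**
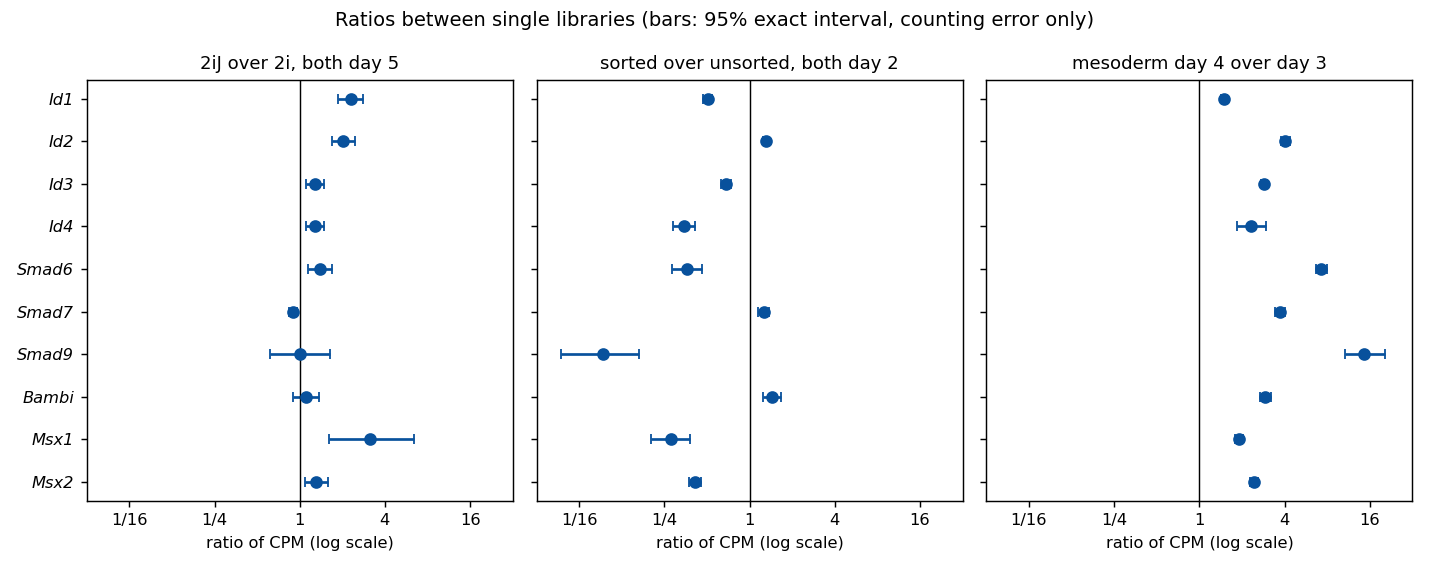
Ratio of CPM between single libraries for the 10 target genes, on a log axis with exact 95% intervals for counting error only, for 2iJ over 2i, sorted over unsorted on day 2, and mesoderm day 4 over day 3. All 10 points lie right of 1 in the mesoderm panel, from 1.49 to 14.6, and 7 of 10 lie left of 1 in the sorted panel.

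The genes around the target genes differed widely between mesoderm progenitors and 2iJ+B-A. All 3 listed SMADs were higher in the mesoderm progenitors, Smad1 by 2.35, Smad5 by 1.23 and Smad4 by 0.86 on the log2 scale (edgeR adjusted p from 0.00505 to 0.0105), and this count of 3 held in each alternative run. Smad1 was at 168 and 82.5 CPM on days 3 and 4 against 26.5, 28.2 and 19.5 CPM in 2iJ+B-A, with no overlap. The 3 E proteins were also all called higher, but without day 5 or day 11 of 2iJ+B-A only 2 were. Without mesoderm day 4, too, not all of them were. Tcf12 was at 112 and 151 CPM against 41.2, 39.9 and 42.9 CPM (log2 fold change 1.68, edgeR adjusted p = 0.0032). Among 9 ligands Bmp2, Bmp5 and Bmp7 rose and Bmp8a and Bmp8b fell, but without day 5 of 2iJ+B-A none of these passed, and 1 rose without mesoderm day 4, day 2 or day 11 and 6 without mesoderm day 3. Bmp4 was at 7.03 CPM on day 3 and 161 CPM on day 4, a ratio of 22.9 (19.98 to 26.3), and did not pass over both days. Of 10 receptors and coreceptors Acvr2a and Acvr2b rose and Eng fell, and Acvr2b was lost without mesoderm day 4 or any 2iJ+B-A library (without mesoderm day 3, 5 receptors rose). Of 10 antagonists Chrd, Grem1, Twsg1 and Bmper rose, with Bmper at 32.4 and 129.8 CPM against 0.98, 2.93 and 2.86 CPM (log2 fold change 5.18, edgeR adjusted p = 0.00603). Without day 5 of 2iJ+B-A, 3 antagonists were called higher. Grem1 reached the count filter only through the mesoderm and sorted libraries. Of 11 other BMP-responsive genes Hey1 and Nkx2-5 rose and Gata2, Dlx3 and Dusp9, which were higher in 2iJ+B-A than in 2i and 2iJ, fell. The 2 that rose became 4 without mesoderm day 3 and 1 without mesoderm day 4 or any 1 library of 2iJ+B-A. Gata2 was at 8.01 and 12.4 CPM in the mesoderm progenitors against 172, 210.1 and 119.9 CPM in 2iJ+B-A (log2 fold change -4.02, edgeR adjusted p = 0.00179). Of 5 intracellular negative regulators Smurf2 and Skil rose, but Smurf2 was lost without day 5 of 2iJ+B-A, and Skil without either mesoderm library, day 5 or day 11. None of the 5 genes of the Nodal and Activin branch passed the edgeR test, with 0 at an unadjusted p under 0.05 and 1 called higher by DESeq2. Without mesoderm day 3, 2 of them were called lower, and without mesoderm day 4, 1 was called higher. The comparison shares the 2iJ+B-A libraries with the one against 2i and 2iJ.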

How the data were processed

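The authors prepared strand-specific poly-A libraries and deposited raw counts of read pairs per gene in 3 strand settings, without normalization. The submitters' processing notes name bcl2fastq 2.17, cutadapt, STAR 2.4.2a and the NCBIM37 build. The annotation release used in counting is not given in the sources used here. The study adjusted its own expression values for batch, and the deposited counts carry no such adjustment. Reverse-strand counts were used, because on the opposite strand lay only 5.03% to 6.47% of strand-assigned gene counts. The 4 summary rows that name no gene stayed out of library sizes: unmapped pairs were 2.17% to 3.85% of pairs (29.7% in the sorted library), and pairs outside genes 7.83% to 13.2% of unique ones (27.8%). GENCODE symbols named 37205 of 37620 genes.

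Groups and days came from the labels. The members and lists were chosen with earlier results of these data known. Counts were fitted in edgeR 4.0.16 (R 4.3.3) with TMM scaling and the quasi-likelihood test, for genes that reached 10 counts in 2 or more libraries, with Benjamini-Hochberg adjustment over all genes and a threshold of 0.05. The comparison of 2iJ+B-A with 2i and 2iJ used those 5 libraries (3 residual degrees of freedom), and the others used all 8 in 5 groups (3 residual degrees of freedom). Standard errors (SE) were derived from the F statistic, as the size of the log2 difference over its root. CPM are shares of reverse-strand gene counts without TMM scaling. A count of 3, the floor, was 0.0954 to 0.151 CPM. Wilson and exact intervals cover counting error only. The alternatives were DESeq2 1.42.0, other scalings, filters, strand settings and samples. The scripts were tested on simulated data. Named were all 10 target genes, listed pathway genes past the threshold with up to 3 of the most abundant a list, and, for Id1, Id3, Smad6 and Msx2, the 3 genes with the highest Pearson r of log2(CPM + 0.5). Msx1 in mesoderm and single marker genes are named beside the results they touch. The values of 1 gene of the Nodal and Activin list are not reported here.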

Additional observations from a re-analysis of the deposited data

How the results depend on the processing

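For 2iJ+B-A against 2i and 2iJ, 832 genes and 6 of the 10 target genes passed. With DESeq2 2235 genes passed and without the filter on low counts 1757 (9 target genes in both). Beyond the 6, these were Smad6 and Msx1, which were higher, and Smad7, which was lower. The log2 fold change of Smad7 was -0.856 with DESeq2 and -0.843 without the filter. With all 8 libraries in the fit it was 150 genes and 2 target genes, and with 2iJ alone as the reference 0 and 0. Leaving out 1 library gave 0 to 2632 genes and 0 to 8 target genes, and no fold change of a target gene turned sign. For mesoderm against 2iJ+B-A, 4584 genes and 2 target genes passed, and leaving out 1 library gave 2019 to 4538 genes and 0 to 8 target genes. There the log2 difference ranged from -2 to 0.0376 for Id2, -0.39 to 2.5 for Smad6, -0.583 to 1.33 for Smad7, -2.34 to 1.56 for Smad9 and -0.719 to 0.583 for Msx2 (-0.11 without 2iJ+B-A day 11), with the lowest value always without mesoderm day 4 and the highest without day 3. For sorted against 2iJ+B-A, 919 genes and 0 target genes passed. DESeq2 gave 2697 and 2, no filter 1390 genes, a fit of only the compared groups 1911 and 2, and a slope on log2(day) 27 genes. Leaving out 1 library gave 37 to 117 genes and no target gene. The cause was not tested. The target genes whose 2iJ+B-A libraries all lay above both references were 9 with CPM, and 8 with TMM-scaled CPM or unstranded counts. No paired analysis was possible because the labels give no replicate numbers shared between groups. In these fits single libraries stand for 2i, 2iJ and the sorted cells, so those groups have no spread of their own.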

Other observations

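The genes whose pattern was most like that of a target gene were named by the Pearson correlation of log2(CPM + 0.5) over the 8 libraries, among 11053 genes with at least 10 CPM in at least 1 library. The libraries come from 5 groups and are not independent samples of 1 condition, so this is a description without a test. For Id1 the first 3 were Gps2, which encodes a subunit of the NCoR corepressor complex, Mdp1 and Vps37c, with correlations of 0.995, 0.982 and 0.971. Gps2 was at 13.9 and 17.0 CPM in 2i and 2iJ, 28.5, 30.8 and 31.4 CPM in 2iJ+B-A on days 2, 5 and 11, 25.4 CPM in the sorted cells and 30.7 and 31.9 CPM in the mesoderm progenitors. It thus had the order of Id1 in nearly every library over a much narrower range. For Id3 the first 3 were Trappc2l, 6720456H20Rik and Suv39h1, the last a histone H3 lysine methyltransferase, at 0.99, 0.986 and 0.98. Suv39h1 was at 18.8 and 23.3 CPM in 2i and 2iJ, 48.9, 63.2 and 52.7 CPM in 2iJ+B-A, 46.8 CPM in the sorted cells and 75.4 and 133 CPM in the mesoderm progenitors.

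For Smad6 the first 3 were Casd1, 5430417L22Rik and Igf1r, the receptor of insulin-like growth factor 1, at 0.975, 0.972 and 0.968. Igf1r was at 14.7 and 17.3 CPM in 2i and 2iJ, 16.9, 31.6 and 25.9 CPM in 2iJ+B-A, 9.09 CPM in the sorted cells and 24.5 and 55.5 CPM in the mesoderm progenitors. As with Smad6, the sorted library was the lowest and mesoderm day 4 the highest. For Msx2 the first 3 were Eri3, Galns and Crtc3, at 0.981, 0.97 and 0.967. Crtc3, a coactivator of CREB, was at 2.35 and 2.80 CPM in 2i and 2iJ, 10.2, 16.3 and 9.90 CPM in 2iJ+B-A, 6.16 CPM in the sorted cells and 10.8 and 15.1 CPM in the mesoderm progenitors.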
